A study of Mus musculus with 32 samples.

Results

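The TGF-beta pathway genes described here are 8 genes of the transforming growth factor beta (TGF-beta) pathway, followed through 31 RNA libraries of sorted mouse donor T cells. They were chosen by symbol: the ligand gene Tgfb1, the receptor genes Tgfbr1, Tgfbr2 and Tgfbr3, the signal transducer Smad3, the inhibitory Smad7, and the transcriptional corepressors Ski and Skil. All 8 of the 8 listed symbols were among the 16741 genes of the expression table. The donors were C57Bl6 mice, and the model of graft-versus-host disease placed their cells into Balb/c recipients, a mismatch at the major histocompatibility complex. All cells came from spleen and lymph nodes.

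The 10 groups were defined by cell type and by arm. Before transplantation (day 0) there were 2 libraries each of CD4 cells, CD8 cells and regulatory T cells (Treg). From recipients labelled Allo, which received donor T cells without added Treg, there were 4 CD4 and 4 CD8 libraries, called allogeneic here. From allogeneic recipients that were also given Treg on day 0, there were 4 CD4, 4 CD8 and 3 Treg libraries, called Treg-treated for CD4 and CD8 and Treg day 6 for Treg. From recipients labelled Syn there were 3 CD4 and 3 CD8 libraries, called syngeneic; the labels name no strain for these recipients. The titles of all recipient libraries give day 6, whereas the design text of the study gives day 8. Labels carry a prefix, JL019 or JL027, that divides every group, and recipients are numbered within it. The labels do not state how many animals stand behind a library, so p-values measure the spread between these samples, which may be partly technical.

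TGF-beta is secreted as a latent complex and, once released, binds the type II receptor encoded by Tgfbr2, which phosphorylates the type I receptor encoded by Tgfbr1. The type I receptor then phosphorylates Smad2 and Smad3, which enter the nucleus with Smad4 and bind regulatory DNA. Tgfbr3 encodes betaglycan, a coreceptor that presents the ligand to the type II receptor. Smad7 blocks the type I receptor, and Ski and SnoN (encoded by Skil) hold Smad complexes in a repressed state. In T cells the pathway is known for restraining effector differentiation and for its part in the induction and maintenance of Treg.

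The values are DESeq2-normalised counts, in which the authors divided each library's counts by a size factor. They allow one gene to be compared across libraries, but not the levels of different genes, because they are not scaled to transcript length. Sequencing depth cannot be read from such values and is unknown. Averaged over genes, the normalised count of a library lay between 1227 and 2385. Changes are differences on the log2(normalised count + 1) scale, which understates the change of low genes, given with the standard error (SE) from limma, a linear model fitted to all genes and libraries. A gene was called when its p-value, adjusted by the Benjamini-Hochberg method over all 16741 genes of the comparison, was under 0.05. In bulk RNA of sorted cells, a lower level can come from fewer cells that express the gene or from less of its RNA per cell, and these cannot be told apart.

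Cell type markers matched the labels in most libraries, with exceptions that touch the results below. In the CD4 syngeneic library JL019-2, the normalised count of Cd4 was 1659, against 14576 and 16526 in the other CD4 syngeneic libraries. The summed count of 9 myeloid markers was 3593362 in that library and between 806 and 86725 in the other CD4 libraries. Its count of Cd8a was 1956. It also adds to the spread that all comparisons share in the fit, so each call of a member that differs with this library in no fit is given below. The myeloid sum also moved with the arms. It was 806 to 1693 in day 0 CD4 cells (with Cd14 at 0 in both), 84201 and 78215 in the other syngeneic CD4 libraries, JL019-1 and JL027, and 5432 to 11024 in allogeneic ones. It was 3638 to 4976, 37802 to 61902 and 6605 to 10711 in day 0, syngeneic and allogeneic CD8 cells. In Treg-treated CD8 cells it was 11798 to 31776, above all allogeneic ones. The day 0, allogeneic and syngeneic ranges did not overlap in either cell type, so fits that hold the sum as a covariate cannot separate it from the arm. Its part in the results was not tested beyond those fits. Other marker sums moved too. Those of 6 erythroid genes were 29059 to 33121 in day 0 CD8 cells, 3138 to 10830 in syngeneic and 547 to 14749 in allogeneic ones, without overlap with day 0. Those of the 4 B cell genes in the table were 1548 to 2300 in day 0 CD8 cells, 956 to 1833 in syngeneic and 690 to 972 in allogeneic ones. The sum of 2 NK cell genes was 283 to 299 in day 0 CD8 cells, below the 384 to 699 of syngeneic and the 360 to 698 of allogeneic ones. For 6 stroma genes it was 2394 to 2802 at day 0, 975 to 1563 in syngeneic and 2431 to 2915 in allogeneic CD8 cells. In CD4 cells, from day 0 to the allogeneic arm, the B cell sum was 362 to 499 and then 158 to 240, the NK cell sum 372 to 392 and then 133 to 164, and the stroma sum 4676 to 5185 and then 3568 to 4271. In Treg, from day 0 to day 6, the erythroid sum was 117 to 451 and then 1644 to 50088, the NK cell sum 189 to 263 and then 39.3 to 62.5, and the B cell sum 834 to 908 and then 476 to 720. None of these ranges overlapped in CD4 cells or in Treg. The part of these sums in the changes from day 0 was not tested. The markers by which the cells are named moved as well. Cd8a was 23173 and 31914 in day 0, 14160 to 19947 in allogeneic, 22586 to 29769 in Treg-treated and 33817 to 61115 in syngeneic CD8 cells. The ranges of the recipient arms did not overlap. Cd4 was 7239 and 9029 in day 0 Treg, 14512 to 16083 in day 6 Treg and 14693 and 14778 in day 0 CD4 cells. What these markers add to the results was not tested. Foxp3, the transcription factor that defines Treg, had normalised counts of 198 and 442 in the day 0 Treg libraries and of 1145 and 978 in the day 0 CD4 libraries, which goes against the labels. The sum of 4 Treg markers, Foxp3 included, went with the labels, at 38975 to 42103 in day 0 Treg and 5777 to 5925 in day 0 CD4 cells. It was 18704 to 26685 in allogeneic CD4 cells, and 695 to 951 in day 0 and 19024 to 25973 in allogeneic CD8 cells, without overlap between these arms. In syngeneic CD4 cells it was 1023 to 5923 and in syngeneic CD8 cells 408 to 513, both below the allogeneic ranges. Day 6 Treg were at 61496 to 104036, above day 0 Treg. The part of this sum in the changes from day 0 and between the arms was not tested. The summed count of the platelet and megakaryocyte markers, cells rich in Tgfb1, lay between 1.89 and 230 in all groups (3 of 6 listed markers were in the table).

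Tgfbr2, Smad3 and Ski were the members called in the comparison of CD4 cells with and without added Treg, and the 250 bases upstream of their start sites are shown so that these 3 regulatory regions can be compared. The sequences and positions are from RefSeq on GRCm38.p6, 5′ to 3′ on the strand of the gene, which is the minus strand for all 3. Capitals mark a match to one of 2 motifs searched on both strands: CAGAC (reverse complement GTCTG), the Smad-binding element, and GGCGCC (its own reverse complement), a GC-rich Smad3 and Smad4 motif.
Tgfbr2, chr9:116175364-116175613: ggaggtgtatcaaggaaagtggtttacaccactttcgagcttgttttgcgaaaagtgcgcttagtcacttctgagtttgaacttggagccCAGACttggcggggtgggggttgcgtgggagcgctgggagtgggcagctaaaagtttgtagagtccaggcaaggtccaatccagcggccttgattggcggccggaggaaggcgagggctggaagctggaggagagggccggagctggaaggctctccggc
Smad3, chr9:63757995-63758244: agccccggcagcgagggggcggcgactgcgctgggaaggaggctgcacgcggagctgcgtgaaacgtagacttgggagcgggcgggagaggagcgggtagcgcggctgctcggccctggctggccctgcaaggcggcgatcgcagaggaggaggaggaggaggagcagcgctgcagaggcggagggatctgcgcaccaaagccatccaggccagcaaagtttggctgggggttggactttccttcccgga
Ski, chr4:155222536-155222785: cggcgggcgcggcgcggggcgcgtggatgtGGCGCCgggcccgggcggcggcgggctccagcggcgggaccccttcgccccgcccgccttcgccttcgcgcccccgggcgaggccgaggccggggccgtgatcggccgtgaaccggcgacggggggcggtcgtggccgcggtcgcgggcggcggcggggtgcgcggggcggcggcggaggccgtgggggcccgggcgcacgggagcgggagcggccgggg

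The Tgfbr2 window held 1 CAGAC, whose first base lies at -160 from the start site. The Ski window held 1 GGCGCC at -220. The letters of neither motif occur in the Smad3 window. Of 32851 promoter windows of the same 250 bases in the table, 42.2% held CAGAC on either strand and 9.59% held GGCGCC. The Tgfb1 window held neither motif, and Tgfbr1 had 2 windows, 1 with a single CAGAC at -203 and 1 with a single GGCGCC at -233. Tgfbr3, Smad7 and Skil had no window in the table. A match describes these letters and is not evidence of a bound site.

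Of the receptors, the coreceptor gene Tgfbr3 had by far the widest range, and in CD4 and in CD8 cells its values in the day 0, syngeneic and allogeneic arms did not overlap. In CD4 cells at day 0 its normalised count was 2680 and 2808. In the CD4 syngeneic libraries it was 1551, 1175 and, in the library of mixed markers JL019-2, 275. In the 4 CD4 allogeneic libraries it was 58.5, 53.2, 49.2 and 76.3. Every allogeneic value was below every syngeneic value, and every syngeneic value was below both day 0 values.

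**Figure D1:**
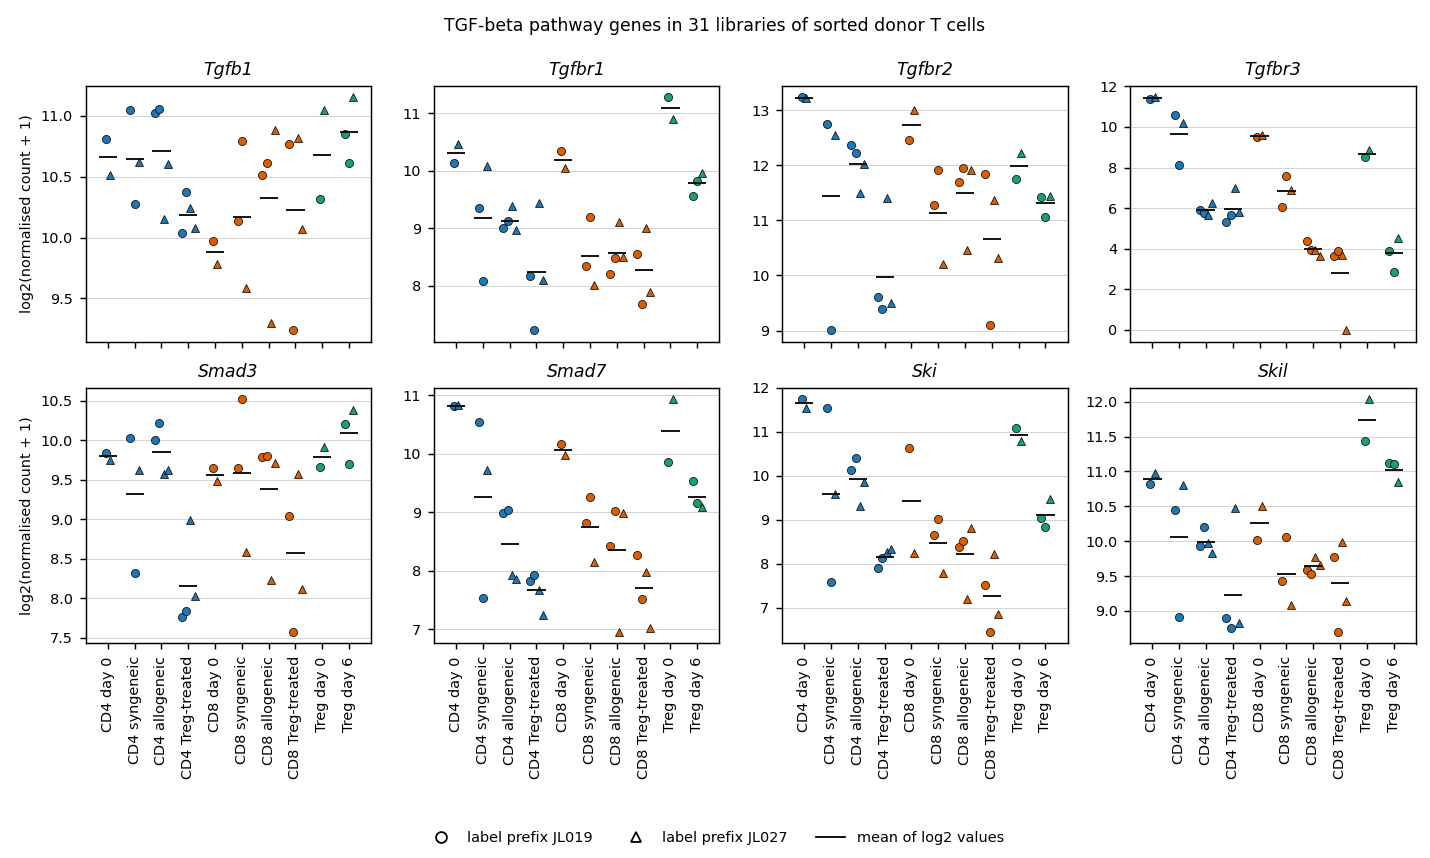
Level of the 8 genes in every library, as log2(normalised count + 1), with groups along the horizontal axis, coloured by cell type; circles and triangles are libraries with the label prefixes JL019 and JL027, and bars are the means of the log2 values. Each panel has its own vertical range, and Tgfbr3 spans the widest, from 2808 in day 0 CD4 cells to a library listed at 0 among the Treg-treated CD8 cells.

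The mean of Tgfbr3 in day 0 CD4 cells was 2744 ± 90.8 (SD, n = 2), which is 46.3 times the mean of the allogeneic ones, 59.3 ± 12.0 (SD, n = 4). The log2 change was -5.53 (SE 0.763, limma adjusted p = 2.83e-06). Against the syngeneic CD4 cells, whose mean was 1000.3 ± 656 (SD, n = 3), it was -3.74 (SE 0.673, limma adjusted p = 0.000247), and -4.51 without the library of mixed markers. The difference between syngeneic and day 0 CD4 cells was not called, at -1.79 (limma adjusted p = 0.148). It was -1.02 without that library and 0.20 with the myeloid sum as a covariate. Within each label prefix the change from day 0 to the allogeneic arm was close to the pooled one, at -5.56 for JL019 and -5.49 for JL027.

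CD8 cells showed the same order at lower levels of Tgfbr3. The day 0 libraries were at 718 and 785, the syngeneic ones at 65.9, 190 and 119, and the allogeneic ones at 19.9, 14.2, 14.2 and 11.4. The 3 arms did not overlap. The change from day 0 was -5.59 in allogeneic CD8 cells (SE 0.763, limma adjusted p = 2.32e-06) and -2.70 in syngeneic CD8 cells (SE 0.804, limma adjusted p = 0.0174), and the difference allogeneic minus syngeneic was -2.88 (SE 0.673, limma adjusted p = 0.00238). The difference between syngeneic and day 0 cells was not called with a pseudocount of 0.1, with the library mean or the myeloid sum as a covariate, or without any single one of CD8 day 0 JL019, CD8 day 0 JL027 and CD8 syngeneic JL019-1 (adjusted p up to 0.196 over the alternatives).

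The day 0 Treg libraries were at 364 and 460 and the day 6 Treg libraries at 14.0, 6.23 and 22.4, without overlap. The change was -4.91 (SE 0.804, limma adjusted p = 7.53e-05). In Treg-treated recipients the CD4 cells were at 38.3, 49.1, 125 and 56.1, all above the day 6 Treg, a difference Treg minus CD4 of -2.17 (SE 0.673, limma adjusted p = 0.0170). That difference was not called with a pseudocount of 0.1 or without Treg day 6 JL019-2 (adjusted p up to 0.0997).

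**Figure D2:**
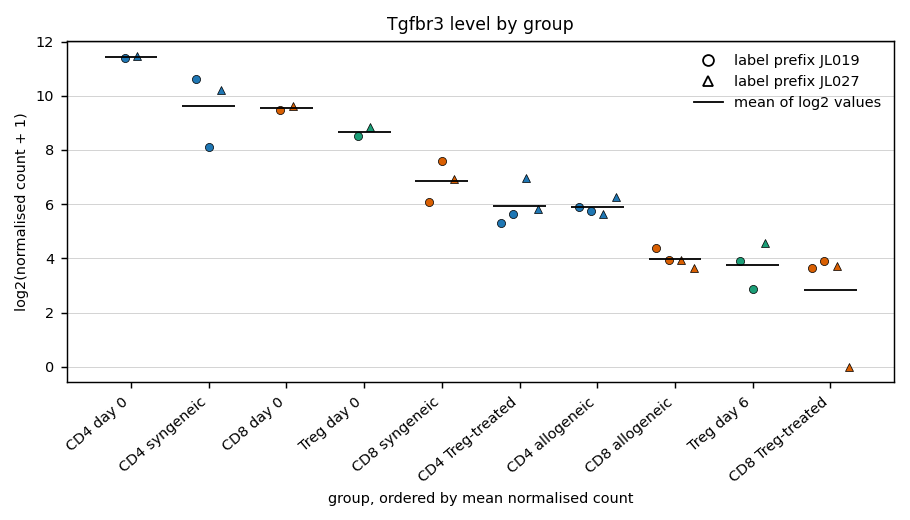
Tgfbr3 in every library, as log2(normalised count + 1), with the 10 groups ordered by mean normalised count from left to right; points are libraries and bars are the means of the log2 values. The day 0 CD4 libraries (2680 and 2808) stand above every other group, and the allogeneic CD8, day 6 Treg and Treg-treated CD8 libraries lie at 22.4 or below.

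Ordered by mean, Tgfbr3 ran from CD4 day 0 through CD4 syngeneic, CD8 day 0, Treg day 0, CD8 syngeneic, CD4 Treg-treated, CD4 allogeneic, CD8 allogeneic and Treg day 6 to CD8 Treg-treated. Of the 9 pairs of neighbours in this order, 4 did not overlap: CD4 day 0 with CD4 syngeneic, CD8 day 0 with Treg day 0, Treg day 0 with CD8 syngeneic, and CD4 allogeneic with CD8 allogeneic. Added Treg did not move the gene detectably in either cell type. The Treg-treated minus allogeneic change was 0.04 in CD4 cells (95% interval -1.24 to 1.32) and -1.15 in CD8 cells (95% interval -2.43 to 0.129), where the Treg-treated libraries were at 11.5, 14.0 and 12.2 and 1 was listed at 0.

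The 3 genes whose level was most like that of Tgfbr3 over the 31 libraries, by Pearson's r of log2 values among 9826 genes searched, were Amigo2 (r = 0.919), Bach2 (r = 0.915), a transcription factor of resting lymphocytes, and Il6ra (r = 0.910), the interleukin 6 receptor. These points share libraries and groups, so the values are descriptive. Among the members themselves, Tgfbr1 and Skil were most alike (r = 0.924) and Tgfb1 and Tgfbr3 least (r = 0.105).

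Tgfbr1, the type I receptor gene that carries the Smad-activating kinase, was highest in day 0 Treg and lower in all cells taken from recipients. Day 0 Treg were at 2472 and 1918, day 0 CD4 cells at 1122 and 1415, and day 0 CD8 cells at 1292 and 1050. Allogeneic CD8 cells were at 294, 357, 549 and 360, and syngeneic CD8 cells at 323, 582 and 257, so both arms lay below day 0 without overlap. The change from day 0 was -1.62 in allogeneic CD8 cells (SE 0.471, limma adjusted p = 0.0104) and -1.67 in syngeneic CD8 cells (SE 0.497, limma adjusted p = 0.0172), and allogeneic minus syngeneic was 0.06 (95% interval -0.796 to 0.911). Neither call was made without CD8 day 0 JL019 or with the library mean as a covariate, and the syngeneic call was also not made with the myeloid sum as a covariate or without CD8 syngeneic JL019-1 or JL027.

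In CD4 cells and Treg the Tgfbr1 values also lay below day 0 without overlap, but did not pass the test. The CD4 allogeneic libraries were at 509, 554, 667 and 502 (change -1.18, SE 0.471, limma adjusted p = 0.0700). The day 6 Treg libraries were at 754, 901 and 992 (change -1.31, SE 0.497, limma adjusted p = 0.0844). With the library of mixed markers left out of the fit, both were called (adjusted p = 0.0348 and 0.0399).

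Tgfbr2, which encodes the ligand-binding type II receptor, was highest in day 0 CD4 cells, at 9620 and 9580. The allogeneic CD4 libraries were at 5278, 4759, 2887 and 4171, all lower, with a change of -1.20 that was not called. In the Treg-treated CD4 libraries the counts were 784, 671, 2719 and 722. All 4 were below every allogeneic value, with JL027-1 close to the lowest of them. The mean was 1224 ± 998 (SD, n = 4) against 4274 ± 1029 (SD, n = 4), and the change was -2.05 (SE 0.620, limma adjusted p = 0.0233). The Treg-treated CD8 libraries, at 3665, 550, 2637 and 1268, overlapped the allogeneic ones, at 3300, 3978, 1405 and 3867, and the change of -0.85 (95% interval -2.12 to 0.423) was not called.

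The ligand gene Tgfb1 was called by limma in none of the 15 comparisons, and none of them gave it an unadjusted p under 0.05. Its group means lay between 942 in day 0 CD8 cells and 1893 in day 6 Treg. Its lowest unadjusted p, 0.0653, was in Treg-treated recipients, where the day 6 Treg were at 1843, 1564 and 2272 and the CD4 cells at 1048, 1322, 1213 and 1081, all below the Treg.

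Smad3, the receptor-activated transducer, was lower in CD4 cells from recipients with added Treg. The allogeneic CD4 libraries were at 1019, 1187, 760 and 785, and the Treg-treated CD4 libraries at 216, 227, 505 and 258. The groups did not overlap. The mean was 302 ± 137 (SD, n = 4) against 938 ± 203 (SD, n = 4), and the change was -1.70 (SE 0.432, limma adjusted p = 0.0137). From day 0 to the allogeneic arm, Smad3 changed by 0.06 in CD4 cells (95% interval -1.03 to 1.14) and by -0.18 in CD8 cells, and neither was called.

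Smad7, the inhibitory Smad that TGF-beta itself induces, was lower in allogeneic cells than before transplantation. Day 0 CD4 cells were at 1794 and 1819, and allogeneic CD4 cells at 506, 528, 242 and 232, with both JL027 libraries at the lower end. The change was -2.36 (SE 0.588, limma adjusted p = 0.00356). In CD8 cells the day 0 libraries were at 1155 and 1003 and the allogeneic ones at 345, 519, 123 and 509, a change of -1.72 (SE 0.588, limma adjusted p = 0.0274). The CD8 call was not made without CD8 day 0 JL019, CD8 day 0 JL027 or CD8 allogeneic JL027-1, nor with the library mean as a covariate (adjusted p up to 0.307). The CD4 call was not made with the myeloid marker sum as a covariate (adjusted p = 0.107).

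Ski, which encodes a corepressor of Smad complexes, was at 3423 and 3001 in day 0 CD4 cells. The syngeneic CD4 libraries were at 3006 (JL019-1), 773 (JL027) and 191 (the library of mixed markers), and overlapped with day 0. The allogeneic CD4 libraries were at 1123, 1353, 636 and 933, below day 0 without overlap (change -1.72, SE 0.685, limma adjusted p = 0.0706). With the library of mixed markers in no fit, this change was called (limma adjusted p = 0.0211). The Treg-treated CD4 libraries were at 238, 280, 306 and 321, which is a narrow range below all allogeneic values. The change with added Treg was -1.77 (SE 0.559, limma adjusted p = 0.0268). Day 0 CD8 cells gave 1585 and 302, so the 2 libraries of that group lay far apart, and no change from CD8 day 0 was called.

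Skil, which encodes the related corepressor SnoN, was highest in Treg. Day 0 Treg were at 2763 and 4194 and day 6 Treg at 2234, 2203 and 1843. In Treg-treated recipients, CD4 cells were at 474, 430, 1422 and 451. The difference Treg minus CD4 was 1.79 (SE 0.383, limma adjusted p = 0.00123), and all 3 Treg libraries were above all 4 CD4 libraries. At day 0 the difference was 0.84 (95% interval -0.189 to 1.87), which was not called.

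**Figure D3:**
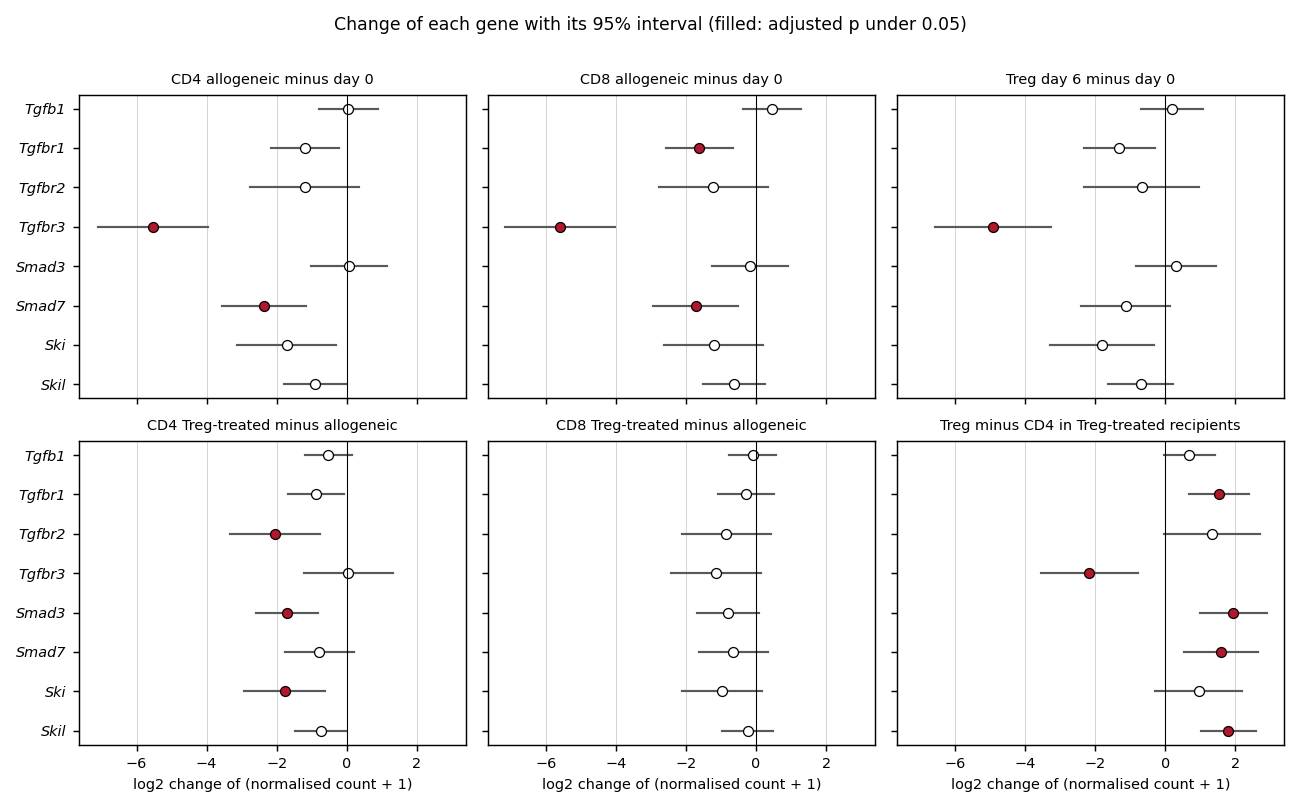
Change of each of the 8 genes in 6 comparisons, on the log2(normalised count + 1) scale, with 95% intervals from the fit over all libraries; filled points have an adjusted p under 0.05. Tgfbr3 stands at -5.53, -5.59 and -4.91 in the upper row, while in Treg-treated against allogeneic cells the filled points are Tgfbr2, Smad3 and Ski in CD4 cells and none in CD8 cells.

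Read by comparison, the members called have to be set against the share of all genes called. From day 0 to the allogeneic arm, 2 of the 8 genes fell in CD4 cells (Tgfbr3 and Smad7), where 24.0% of all genes were called, and 3 of 8 fell in CD8 cells (Tgfbr1, Tgfbr3 and Smad7), where 30.4% were called. Both counts are near the background. None rose. The 8 genes had a median change of -1.19 (CD4) and -1.22 (CD8), against -0.04 and -0.13 over all genes. These comparisons of 1 cell type share its day 0 libraries with those of the syngeneic arm.

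From day 0 to the syngeneic arm, limma called none of the 8 genes in CD4 cells, 5 of them had an unadjusted p under 0.05, and 13.0% of all genes were called. The median of the 8 was -1.34. With the myeloid sum as a covariate, those 5 had the other sign, and none was called: 1.22 for Tgfbr1, 3.01 for Tgfbr2, 0.20 for Tgfbr3, 1.18 for Smad7 and 1.87 for Ski. Without the library of mixed markers limma still called none, and the median was -0.58, with -0.57 for Tgfbr2 (-1.79 with it), -1.07 for Ski (-2.07) and -0.68 for Smad7 (-1.55). Both fits that left out another syngeneic library kept the mixed one: without JL019-1 the count was 3, and without JL027 it was 1. In CD8 cells 2 of 8 fell (Tgfbr1 and Tgfbr3), where 24.2% of all genes were called. Between the allogeneic and the syngeneic arm, Tgfbr3 alone was called in CD4 cells (1 of 8, 14.6% of all genes) and in CD8 cells (1 of 8, 21.1%). With the library of mixed markers in no fit, Smad7 was also called in 2 comparisons, CD4 allogeneic against syngeneic, at -1.68 (limma adjusted p = 0.0171), and CD8 syngeneic against day 0, at -1.33 (limma adjusted p = 0.0441). The difference of the 2 cell types in this effect was called for none of the 8 genes by limma, none had an unadjusted p under 0.05, and 4.65% of all genes were called.

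With added Treg, 3 of 8 genes fell in CD4 cells (Tgfbr2, Smad3 and Ski), where 22.2% of all genes were called. A further 2 genes, Tgfbr1 and Skil, had an unadjusted p under 0.05, and the median of the 8 was -0.83. In CD8 cells limma called none, none had an unadjusted p under 0.05, and 0.0657% of all genes were called, with a median of -0.73 for the 8 genes. That the effect was called in CD4 and not in CD8 cells does not show that it differed: the test of the difference called none of the 8 genes in limma, none had an unadjusted p under 0.05, and 0.00597% of all genes were called. For Smad3 that difference was 0.89 (95% interval -0.363 to 2.15).

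The CD4 result depended on single libraries. Of the 4 Treg-treated CD4 libraries, JL027-1 was the highest for Tgfbr2, Smad3 and Skil. Without it, 5 of the 8 genes were called, Tgfbr1 and Skil in addition. Without Treg-treated JL019-1 or without JL019-2, none was called. Without Treg-treated JL027-2, Smad3 alone was called (adjusted p = 0.0490), and so it was without allogeneic JL019-1 or JL019-2. Without allogeneic JL027-2, Ski was not called (adjusted p = 0.0516). The share of all genes called in these fits is not given, so these moves cannot be told from a move in the calls over all genes. Within the prefix JL019 the changes were -2.79 for Tgfbr2, -2.31 for Smad3 and -2.25 for Ski, and within JL027 they were -1.31, -1.09 and -1.30.

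Other measures moved with these libraries. Cd4, the marker by which the cells are named, was at 9108, 8722 and 9370 in Treg-treated JL019-1, JL019-2 and JL027-2, but at 17587 in JL027-1 and at 16706 to 21481 in the allogeneic CD4 libraries. The summed count of the 9 myeloid markers was 86725, 46169, 23704 and 26650 in the Treg-treated CD4 libraries JL019-1, JL019-2, JL027-1 and JL027-2, against 5432 to 11024 in the allogeneic ones. The mean normalised count per gene was 1964, 2118, 1608 and 1817 in the same order, against 1504 to 1669. The slope of a library's log2 levels, relative to each gene's mean over all libraries, on the log2 span of the gene was -0.10, -0.12, 0.02 and -0.07 in the same order, against 0.02 to 0.05. The summed count of the 6 stroma markers was 1369 to 3196 in the Treg-treated CD4 libraries and 3568 to 4271 in the allogeneic ones, without overlap. With this slope on gene span removed from each library, Tgfbr2, Smad3 and Ski were still called, at -1.82, -1.44 and -1.58. With the log2 library mean as a covariate, the changes were -0.86 for Tgfbr2, -0.90 for Smad3 and -0.86 for Ski, and none was called. With the log2 myeloid marker sum as a covariate they were -0.72, -1.04 and -0.68, and none was called. The myeloid sum did not overlap between these arms. That fit rests on a slope shared by all groups and cannot separate the sum from the arm. What part the other measures have in the result was not tested beyond these fits.

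**Figure D4:**
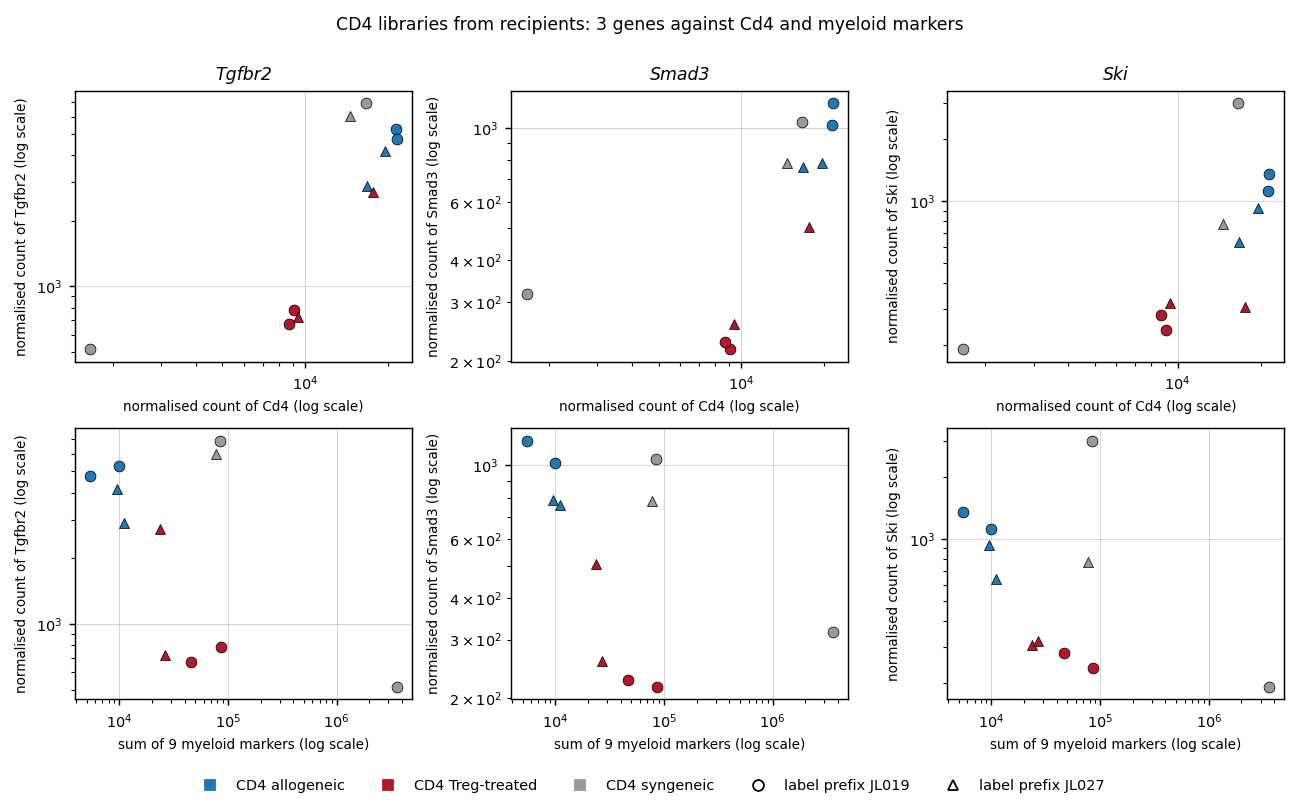
Normalised counts of Tgfbr2, Smad3 and Ski in the CD4 libraries from recipients, against the count of Cd4 (upper row) and the summed count of 9 myeloid markers (lower row), all on log axes; blue is allogeneic, red Treg-treated and grey syngeneic, circles are JL019 and triangles JL027. The Treg-treated library JL027-1, with Cd4 at 17587, lies nearest to the allogeneic libraries for Tgfbr2 (2719) and Smad3 (505).

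In Treg-treated recipients, Treg and CD4 cells could be compared at the same time point, although this comparison shares the Treg-treated CD4 libraries with the previous one. Tgfbr1, Smad3, Smad7 and Skil were higher in Treg and Tgfbr3 was lower, 5 of 8 genes, where 30.0% of all genes were called. The difference was 1.54 for Tgfbr1 (754 to 992 in Treg, 149 to 696 in CD4 cells), 1.94 for Smad3 (826 to 1326 against 216 to 505) and 1.59 for Smad7 (545 to 739 against 150 to 244). None of these groups overlapped. With the myeloid marker sum as a covariate, Tgfbr3 alone was called, and with the library mean as a covariate Smad3, Skil and Tgfbr3 were. Smad7 was also not called without CD4 JL027-2 or Treg day 6 JL019-1. With the library of mixed markers in no fit, Tgfbr2 was called as well, at 1.34 (limma adjusted p = 0.0432). The myeloid marker sum was 1878 to 7176 in the day 6 Treg. The B cell sum was 476 to 720 in these Treg and 143 to 303 in the CD4 cells, and the NK cell sum 39.3 to 62.5 and 97.8 to 195, both without overlap. The part of these 2 sums in the differences was not tested.

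From day 0 to day 6, Tgfbr3 alone was called in Treg (1 of 8, where 13.3% of all genes were called), and without the library of mixed markers Tgfbr1 and Ski were called in addition. Between Treg and CD4 cells at day 0, limma called none of the 8, 1 had an unadjusted p under 0.05 (Tgfbr3, at -2.74) and 3.89% of all genes were called. Between CD8 and CD4 cells at day 0 it called none, 2 had an unadjusted p under 0.05 and 3.32% of all genes were called. Those 2 were Ski and Tgfbr3. With the library of mixed markers in no fit, 1 gene was called in each: Tgfbr3 between Treg and CD4 cells (limma adjusted p = 0.0401) and Ski between CD8 and CD4 cells (limma adjusted p = 0.0404).

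CD8 and CD4 cells of the same allogeneic recipients differed in the same 2 genes without passing the test: Ski was at 332, 364, 146 and 446 in CD8 cells (change -1.71, SE 0.559, limma adjusted p = 0.0707), and the difference for Tgfbr3 was -1.93 (SE 0.623, adjusted p in limma 0.0661). Limma called none of the 8 genes here, 2 had an unadjusted p under 0.05, and 6.15% of all genes were called. With the recipient as a block, which pairs the 2 cell types that carry the same recipient number, both were called (adjusted p = 0.0391 for Ski and 0.0404 for Tgfbr3), as they were with the library of mixed markers in no fit (0.0156 and 0.0325).

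The wider pathway was followed through 7 lists. Together they held 78 genes in the table besides the 8 members; Smad7, Ski and Skil are also counted in the list of genes induced by TGF-beta, and Pmepa1 and Ldlrad4 stand in 2 lists. Of the 78 genes, 15 rose and 11 fell from day 0 to the allogeneic arm in CD4 cells (33.3%, against 24.0% of all genes), 19 rose and 20 fell in CD8 cells (50%, against 30.4%), and 15 rose and 5 fell in Treg by day 6 (25.6%, against 13.3%). Without either CD4 day 0 library, JL019 or JL027, 12 rose and 7 fell in CD4 cells. Without CD8 day 0 JL019, 16 rose and 13 fell in CD8 cells, and without Treg day 0 JL027, 15 rose and 1 fell in Treg. With only the compared groups in the fit, 23 rose and 25 fell in CD4 cells, and 19 rose and 13 fell in Treg. In CD4 cells 17 rose and 15 fell with the library of mixed markers in no fit. Here and below, the shares of all genes set beside the lists are those of the main fit. Those of the alternative fits are not given, so list counts under alternatives cannot be told from a move over all genes. The median change of the 78 was 0.02, -0.23 and -0.06, against -0.04, -0.13 and -0.07 over all genes.

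Among genes of ligands and their activation, Furin, whose protease cleaves the TGF-beta precursor, rose in allogeneic CD4 cells by 3.14 (SE 0.308, limma adjusted p = 7.94e-09), from a mean of 733 to 6459.7. It also rose in allogeneic CD8 cells, by 2.71, and in day 6 Treg, by 1.81. Tgfb3, encoding another ligand, rose in CD4 cells by 2.64 and in Treg by 2.84. Itgb8, a subunit of an integrin that releases active TGF-beta, fell, with changes of -2.62 in CD4 and -3.57 in CD8 cells. In this list 2 of 15 genes rose and 2 fell in CD4 cells, and 5 rose and 4 fell in CD8 cells (median -0.01 and -0.15). The share called was 26.7% and 60%, against 24.0% and 30.4% of all genes. Without CD8 day 0 JL019, 4 rose and 1 fell in CD8 cells, and without CD8 day 0 JL027, 2 rose and 3 fell.

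Of 10 other receptors of the family, none rose in any of these 3 comparisons. In CD4 cells 2 fell (20% of the list, against 24.0% of all genes): Acvrl1, a type I receptor best known from endothelium (-6.18), and Acvr1b, the activin type I receptor (-2.68). In CD8 cells 5 fell (50%, against 30.4%), among them Acvr1b (-3.16) and Eng, a coreceptor related to betaglycan (-6.16). In Treg, Acvr1b alone fell (-2.28). Acvr1b had a mean of 173 in day 0 CD4 cells and of 27.0 in allogeneic ones.

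Of 9 Smads and cofactors, Smad1, a transducer of the bone morphogenetic protein branch, alone was called in these 3 comparisons (11.1% of the list in each, against 24.0%, 30.4% and 13.3% of all genes), with changes of -1.63 in CD4 cells, -2.37 in CD8 cells and -1.12 in Treg. The Treg call was not made without Treg day 0 JL019, Treg day 0 JL027, Treg day 6 JL019-2 or Treg day 6 JL027. With only the compared groups in the fit, 4 of the 9 fell in CD4 cells, 2 in CD8 cells and 3 in Treg. Of 11 negative regulators, 3 fell and 1 rose in CD4 cells (36.4%, against 24.0% of all genes), and 5 fell and 1 rose in CD8 cells (54.5%, against 30.4%). In CD4 cells 1 fell without CD4 day 0 JL019, 2 fell without JL027, 1 fell with the myeloid sum as a covariate, 5 fell with the library of mixed markers in no fit, and 7 fell with only the compared groups in the fit. In CD8 cells 3 fell without either CD8 day 0 library, JL019 or JL027. Ldlrad4 and Pmepa1, both induced by TGF-beta and inhibitors of its signal, fell, with changes of -2.35 and -2.47 in CD4 cells and -2.27 and -2.89 in CD8 cells. In Treg the change of Ldlrad4 was -1.95.

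The list of genes that TGF-beta is known to induce in T cells did not move one way, and the list of those it represses mostly rose. Of 15 induced genes, 3 rose (Cdkn1a, Cdkn2b and Ccr8) and 5 fell in allogeneic CD4 cells, with a median of -0.91, and 53.3% were called, against 24.0% of all genes. Without CD4 day 0 JL019, 3 rose and 3 fell, and with the myeloid sum as a covariate 4 rose and 2 fell. In allogeneic CD8 cells 4 rose and 6 fell (66.7%, against 30.4%), or 4 and 3 without CD8 day 0 JL019. Those that rose most were Ccr8, a chemokine receptor, by 5.52, Foxp3 by 4.88 and the cell cycle inhibitor Cdkn1a by 4.18, and Itgae, an integrin gene, had a change of -5.39. Of 14 repressed genes, 9 rose and none fell, with a median of 1.84, against -0.04 over all genes, and 64.3% were called, against 24.0% of all genes. The largest of these were Gzma, Gzmb and Ifng, effector genes of cytotoxic and helper cells, at 8.49, 7.68 and 5.59. In CD8 cells 8 of the 14 rose and Myc fell (64.3%, against 30.4% of all genes), and in Treg 9 rose and Klf2 fell (71.4%, against 13.3%).

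**Figure D5:**
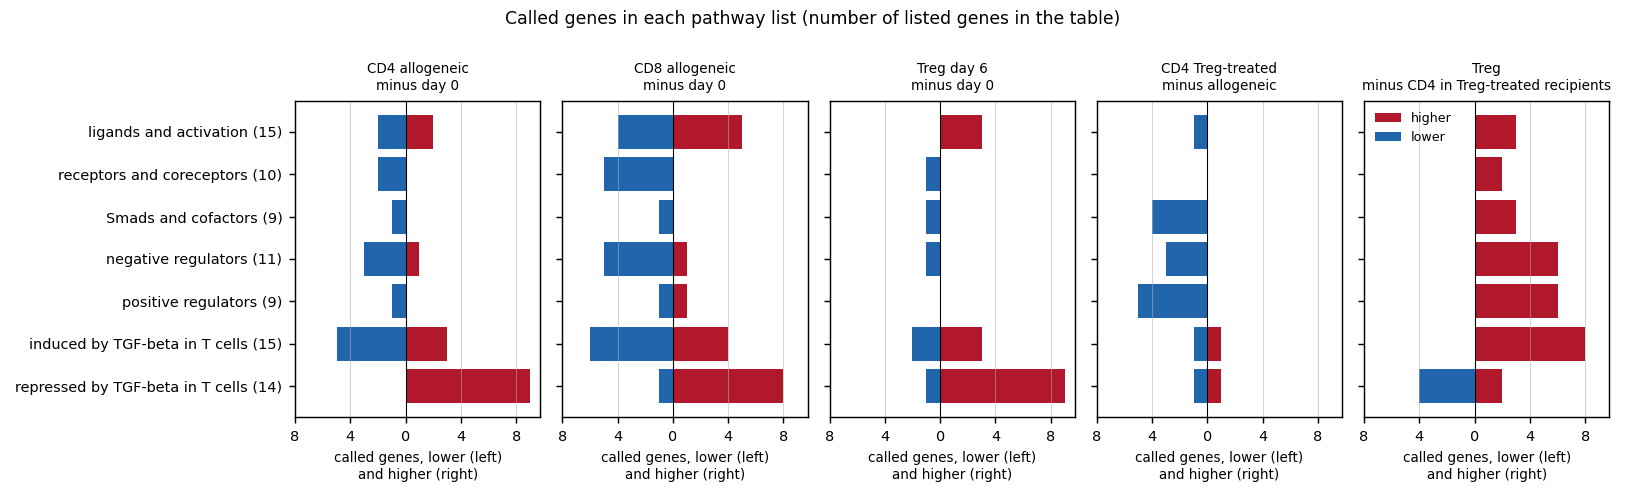
Number of called genes in each of 7 lists of TGF-beta pathway genes, to the left those lower and to the right those higher in the first-named group, for 5 comparisons; the number of listed genes in the table stands in parentheses. The list repressed by TGF-beta has 9, 8 and 9 genes higher in the 3 comparisons with day 0.

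With added Treg, 2 of the 78 genes rose and 14 fell in CD4 cells (20.5%, against 22.2% of all genes), with a median of -0.40. Among Smads and cofactors 4 of 9 fell, including Smad4, the shared partner of Smad2 and Smad3 (-1.18), and the acetyltransferase gene Ep300 (-1.19). Among positive regulators 5 of 9 fell, including the signalling adaptors Traf6 (-1.49) and Tab1 (-1.39) and the deubiquitinase gene Usp4 (-1.38). Smurf1, a ubiquitin ligase of the negative regulators, fell by 1.70, from a mean of 744 to 236. Of the 14 genes in the repressed list, Il2 rose by 2.54 and S1pr1 fell by 1.25, and of the induced list Cdkn2b rose by 1.34 and Ski, one of the 8 members, fell. In CD8 cells limma called none of the 78, and 9 had an unadjusted p under 0.05, as did 1851 of all 16741 genes, 0.0657% of which were called.

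These list counts moved with the same libraries as the members, and the share of all genes called in these fits is not given. Without Treg-treated CD4 JL019-1, 2 of the 78 genes rose and 2 fell; without JL019-2, 2 rose and 3 fell; without JL027-2, 2 rose and 3 fell; and without JL027-1, 5 rose and 22 fell. Without allogeneic CD4 JL019-1 6 fell, and without JL019-2 7 fell. With the myeloid marker sum as a covariate 2 rose and 1 fell, and with the library mean 2 rose and 4 fell. The count was 4 higher and 20 lower with the library of mixed markers in no fit. Among Smads and cofactors none was called without Treg-treated JL019-1, Treg-treated JL027-2 or allogeneic JL019-1, and among positive regulators 1 fell without Treg-treated JL019-1, JL019-2 or JL027-2.

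Between Treg and CD4 cells of Treg-treated recipients, 26 of the 78 genes were higher and 4 lower in Treg (38.5%, against 30.0% of all genes), with a median of 0.72 against 0.14 over all genes. Lrrc32, which encodes GARP, the protein that holds latent TGF-beta on the Treg surface, was 5.81 higher (SE 0.722, limma adjusted p = 1.97e-06), with means of 4717 and 88.5. Itgb8 and Itgav, the 2 subunits of the activating integrin, were 4.23 and 2.79 higher. Itgae was 5.60 and Nt5e 2.86 higher among the induced genes, of which 8 of 15 were higher. Of the 14 repressed genes, 2 were higher in Treg, Gzmb at 1.71 and Gata3 at 1.05, and 4 were lower, among them Il2 at -6.53 and Ifng at -2.43. With the myeloid marker sum as a covariate, 13 of the 78 were higher and 4 lower, without CD4 JL019-1 16 were higher and 3 lower, and without Treg day 6 JL019-1 17 were higher and 3 lower.

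At day 0, before any transplantation, Itgb8 was already 3.46 and Itgav 1.71 higher in Treg than in CD4 cells, and Itgae was 4.33 higher. In that comparison 8 of the 78 genes were higher and 4 lower (15.4%, against 3.89% of all genes). Lrrc32 had a mean of 3767 in day 0 Treg and 874 in day 0 CD4 cells, a difference that was not called (limma adjusted p = 0.288).

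Among the genes most like the other members over the 31 libraries were, for Tgfbr2, the unnamed gene ENSMUSG00000106966 (r = 0.973) and Arhgap45 (r = 0.965). For Smad7 they were Etv3 (r = 0.938), Foxo1 (r = 0.937) and Lats2 (r = 0.922), and for Smad3 Adar (r = 0.947), Pacs1 (r = 0.928) and Trp53bp2 (r = 0.925). Ski was most like Calcoco1 (r = 0.893), Bcl11b (r = 0.886) and Ctdsp2 (r = 0.880). Skil was most like Trp53inp1 (r = 0.945), Adamts6 (r = 0.943) and St8sia4 (r = 0.933), and Tgfbr1 like Bmt2 (r = 0.932), Adamts6 (r = 0.931) and Ash1l (r = 0.927). For Tgfb1, Whamm (r = 0.882) and Asxl1 (r = 0.855) were among the 3 most alike.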

How the data were processed

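The authors deposited a single table of DESeq2-normalised counts, which is a signal scale and not raw counts: values are not whole numbers, whole reads could not be recovered, and the depth is unknown. FastQC 0.11.7, kallisto and DESeq2 were used with mouse builds GRCm38 and mm10, per the submitters' processing notes; the labels' protocols give full-length cDNA amplification before library preparation. The effect is that levels depend on the size factors and on amplification.

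Each of the 31 RNA libraries was placed in 1 of 10 groups by its title. A linear model of group means was fitted to log2(normalised count + 1) of all 16741 genes with limma 3.58.1 in R 4.3.3 (empirical Bayes with trend and robust settings), with 15 contrasts, and p-values were adjusted by the Benjamini-Hochberg method within each. No gene had a mean under 1, so the filter at 1 removed none. The method was tested on simulated data. The members, lists and contrasts were chosen with earlier results of these data known. In each comparison, up to 3 called genes per list and direction with the largest changes could be named; the 3 genes most like each member were sought among genes with a mean of at least 100, leaving out predicted, receptor segment, ribosomal and mitochondrial genes. Of these, 2 genes are not reported here. Groups of 4 were screened for outliers.

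Recipients pair cell types: within allogeneic recipients, the deviations of CD4 and CD8 libraries from their group means correlated in all 4 recipients (r = 0.135 to 0.416, all genes), and the recipient block had a correlation of 0.145. In other arms the correlations were of both signs. Alternatives covered the pseudocount, a filter on low values, only the compared groups, both blocks, median centring, leaving out each library, and 5 chosen after seeing the data: the library mean, gene span, array weights, the myeloid marker sum, and the CD4 syngeneic library JL019-2 in no fit. Gene span was known for 15855 genes and for all 8 members. The T-cell receptor sample and its data were not used here. Promoter windows and positions are from RefSeq (GRCm38.p6).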

Additional observations from a re-analysis of the deposited data

Results flagged for a closer look

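In 32 sets of 4 values (8 genes in 4 groups of 4 libraries), the gap of the highest or lowest library to its neighbour was divided by the range and set against Dixon's 95% critical value for 4 samples. Chance gives about 1 in 20 such sets. It exceeded that value 4 times. In Treg-treated CD4 cells, library JL027-1 stood above the other 3 for Tgfbr2 (2719), Smad3 (505) and Skil (1422). The same library had the highest Cd4 (17587) and the lowest mean normalised count (1608) of its group. In allogeneic CD8 cells, library JL027-1 stood below the others for Smad3 (299); its mean normalised count of 1849 was the highest of its group.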

How the results depend on the processing

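Of 120 pairs of a member and a comparison, 18 were called. Over 334 alternative values of these, 287 were still called, 47 kept the direction without being called and none reversed. These counts include the fit with no filter on low values. It is the main fit itself, as the filter removed no gene, so its values could not differ. For comparisons with the CD4 syngeneic group, the fit without JL019-2 was counted both as a left-out library and as that library in no fit. Of 1668 alternative values of the 84 pairs with an unadjusted p of 0.05 or more, 152 had the other sign and 2 of these were called: Tgfbr2 in CD4 allogeneic against syngeneic, at -2.47 with the myeloid sum as a covariate (0.58 without), and Smad3 in CD8 allogeneic against day 0, at 1.14 with the library mean as a covariate (-0.18 without). Tgfbr3 was called under every alternative run in allogeneic CD4 and CD8 cells against day 0 and against syngeneic cells, and in Treg from day 0 to day 6. Depth is unknown, so no limit from counting can be given. The groups of 2 and 3 libraries limit the precision. Where no value shows a cause, the cause was not tested.

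The number of the 8 genes called moved by more than 1.5 times in the following fits. The share of all genes called in each of these fits is not given here. A count may therefore move because more or fewer genes of any kind were called. Leaving out 1 library gave 0 to 3 for CD4 syngeneic against day 0 (0 with all libraries), 1 to 2 for CD4 allogeneic against syngeneic (1), 0 to 5 for CD4 Treg-treated against allogeneic (3), 1 to 3 for CD8 allogeneic against day 0 (3), 0 to 2 for CD8 syngeneic against day 0 (2) and 0 to 1 for CD8 against CD4 at day 0 (0). The lowest CD8 values came without CD8 day 0 JL019, and 0 for CD8 syngeneic also without CD8 syngeneic JL019-1.

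With the recipient as a replicate block, 2 were called between CD8 and CD4 cells of allogeneic recipients (0 without the block); the blocks by recipient and by prefix moved no other count beyond 1.5 times. With only the compared groups in the fit, the counts were 6 for CD4 allogeneic against day 0 (2), 4 for CD8 syngeneic against day 0, 6 for Treg day 6 against day 0 (1), 5 for Treg against CD4 at day 0 (0), 8 for Treg against CD4 in Treg-treated recipients, 3 for CD8 against CD4 at day 0 and 2 for CD8 against CD4 in allogeneic recipients. Median centring gave 2 for CD4 syngeneic against day 0. A pseudocount of 0.1 gave 1 for CD8 syngeneic against day 0.

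The other alternatives were chosen after seeing the data. For the array weights, limma warned that the estimate had not converged to its tolerance, so their counts are less certain. Array weights gave 6 for CD4 allogeneic against day 0, 1 for CD4 syngeneic against day 0, 3 for CD4 allogeneic against syngeneic, 6 for CD4 Treg-treated against allogeneic, 5 for CD8 syngeneic against day 0, 3 for CD8 allogeneic against syngeneic (1), 5 for Treg day 6 against day 0, 3 for Treg against CD4 at day 0, 1 for CD8 against CD4 at day 0, 3 for CD8 against CD4 in allogeneic recipients, 4 for the difference of the Treg-treated effects (0) and 3 for the difference of the allogeneic effects (0). The library mean as a covariate gave 0 for CD4 Treg-treated against allogeneic, 1 for CD8 syngeneic against day 0, 2 for Treg day 6 against day 0, 1 for Treg against CD4 at day 0, 3 for Treg against CD4 in Treg-treated recipients and 1 for CD8 against CD4 at day 0. The myeloid marker sum as a covariate gave 1 for CD4 allogeneic against day 0, 4 for CD4 allogeneic against syngeneic, 0 for CD4 Treg-treated against allogeneic, 0 for CD8 syngeneic against day 0, 3 for Treg day 6 against day 0, 1 for Treg against CD4 in Treg-treated recipients and 2 for CD8 against CD4 in allogeneic recipients. It also reversed 5 uncalled changes of CD4 syngeneic against day 0, to 1.22 for Tgfbr1, 3.01 for Tgfbr2, 0.20 for Tgfbr3, 1.18 for Smad7 and 1.87 for Ski. With CD4 syngeneic JL019-2 in no fit, the counts were 4 for CD4 allogeneic against day 0, 2 for CD4 allogeneic against syngeneic, 3 for Treg day 6 against day 0, 1 for Treg against CD4 at day 0, 1 for CD8 against CD4 at day 0 and 2 for CD8 against CD4 in allogeneic recipients. With the trend with gene span removed, 1 was called in CD4 syngeneic against day 0 and 1 in Treg against CD4 at day 0.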
